A study of Mus musculus with 3 samples.

Results

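The 8 genes described here encode ligands and 1 receptor through which antigen-presenting cells and other leukocytes raise or restrain T cell activation: Cd80, Cd86, Icosl, Cd274, Pdcd1lg2, Tnfsf4, Tnfsf9 and Cd40. They were chosen by symbol, and all 8 were found among the 31053 gene identifiers of the count matrices. The matrices hold single-cell RNA counts of CD45+ cells, that is leukocytes by their surface marker, from stomach muscle of C57bl/6 mice, all female. All 3 libraries belong to NonDiabetic animals, for which no treatment, genetic change or age is labelled; cell classes were therefore compared within the libraries, and samples of diabetic animals were not analysed here. Nothing in the labels ties a library to a mouse of its own. A p-value here reflects how far differences between classes varied from library to library, a variation that may be technical. Its estimate was shared over genes and over the classes fitted together.

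A T cell needs a signal from its antigen receptor and a second one from co-stimulatory ligands. CD80 and CD86, the B7 molecules, bind CD28, which activates, and CTLA-4, which restrains. ICOSL binds ICOS, and OX40L (Tnfsf4) and 4-1BBL (Tnfsf9) are ligands of the TNF superfamily that bind OX40 and 4-1BB on activated T cells. PD-L1 (Cd274) and PD-L2 (Pdcd1lg2) bind PD-1 and inhibit. CD40, a receptor of the TNF receptor superfamily, takes up the CD40 ligand of T cells and licenses dendritic cells. Dendritic cells carry antigen and these ligands to T cells, muscularis macrophages lie among the smooth muscle and nerves of the gut wall, and group 2 innate lymphoid cells (ILC2) are tissue lymphocytes that make IL-5 and IL-13.

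Of 5735 barcodes, 3430 had at least 1000 unique molecular identifiers (UMIs, each 1 captured RNA molecule) and at most 15% mitochondrial UMIs: 522, 1692 and 1216 cells in replicates 1, 2 and 3. Cells were placed in classes by marker genes that include none of the 8 ligand genes. There were 73 dendritic cells with Ccr7 (Ccr7 DC), 59 conventional dendritic cells of type 1 (cDC1), 198 dendritic cells with Cd209a (Cd209a cDC2), 42 monocytes, 1021 macrophages with a Lyve1 UMI (Lyve1 macrophages), 414 ILC2 and 991 macrophages without one (Lyve1-negative macrophages). As cells set against these, 63 T or NK cells and 44 mast cells were counted. Of the Lyve1 macrophages, 219 had exactly 1 Lyve1 UMI and so lay next to the limit of the gate. Profiles, the counts summed over the cells of a class in a library, needed at least 10 cells, so cDC1 entered tests in replicates 2 and 3 (8 cells in replicate 1) and monocytes in replicates 1 and 2 (6 cells in replicate 3).

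The defining markers were present in the classes, with 2 limits on the names. Of the Ccr7 DC, 72.6% had a UMI of Ccl22, a chemokine of mature dendritic cells, but 67.1% also had one of Cd209a and only 17.8% had Fscn1, the actin bundler of migrating dendritic cells. Ccr7 DC is therefore a name for the marker gate and not for a mature cell state. Of the ILC2, 100% had Gata3, 97.3% Il1rl1 and 94.4% Il7r; Trbc2 was found in 72.9%, while Cd3d, Cd3e and Trac were absent by the gate. Median UMIs per cell were 16625 in Ccr7 DC, 16147 in cDC1, 14219 in Cd209a cDC2, 11130 in monocytes, 7003 in Lyve1 macrophages, 6991.5 in ILC2, 6301 in Lyve1-negative macrophages, 6989 in T or NK cells and 2613.5 in mast cells. Shares of cells with a UMI were therefore compared after each cell was thinned to 1000 UMIs. In replicate 2, 279 of 532 Lyve1-negative macrophages had under 2000 UMIs, against 8 of 120 in replicate 1 and 46 of 339 in replicate 3. Replicates 2 and 3 shared 33 barcodes, replicates 1 and 3 shared 1 and replicates 1 and 2 shared 0; of the 2798 cells in the 7 classes, 26 carried such a barcode.

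**Figure D1:**
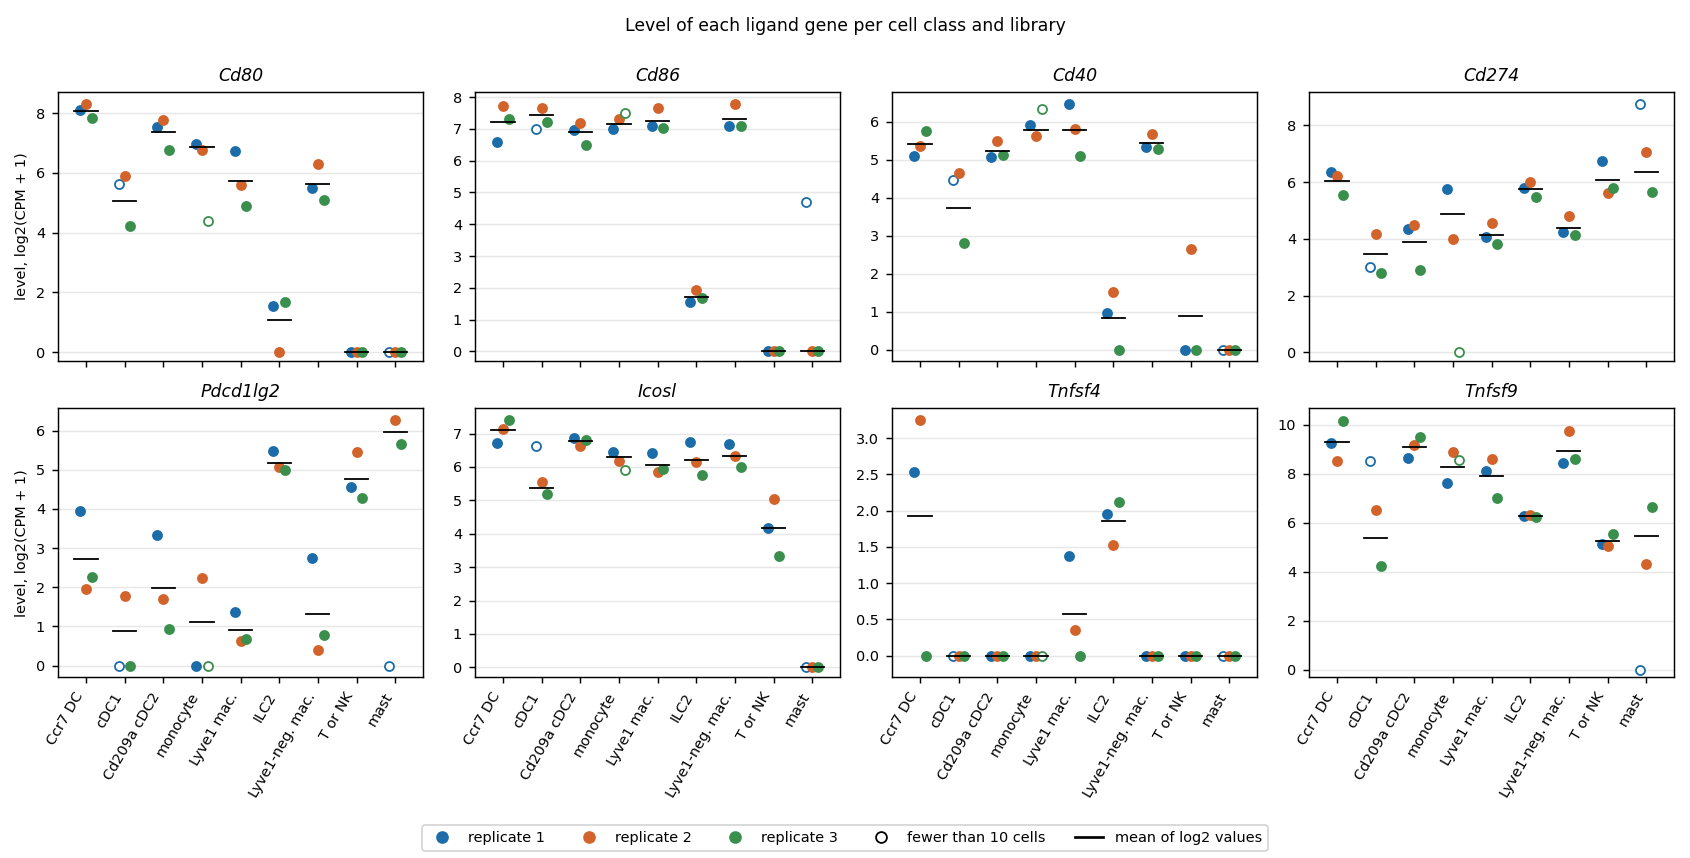
Level of each of the 8 genes in each cell class and library, as log2 of CPM plus 1 (CPM, the UMIs of a gene per 1000000 UMIs of the class), with colours for the 3 libraries, open circles for fewer than 10 cells and a bar for the mean of the log2 values of the filled points. Cd80, Cd86 and Cd40 lie near 0 in ILC2, T or NK cells and mast cells, while Cd274 and Pdcd1lg2 are higher there than in macrophages.

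Levels are UMIs of a gene per 1000000 UMIs of the class in that library (CPM), and differences were tested with edgeR's quasi-likelihood test with the library as a block, with p-values adjusted by Benjamini-Hochberg over all genes tested and a call at an adjusted p under 0.05. Of the 8 genes, 7 passed the filter on low counts and were tested between classes, and Tnfsf4 was not. In Ccr7 DC against Cd209a cDC2, 1 of the 7 was higher and 0 were lower, where 0.582% of all 9444 genes were called higher and 0.455% lower. In cDC1 against Cd209a cDC2, 0 of 7 were higher and 3 lower, where 3.47% of all genes were called higher and 5.53% lower. In Ccr7 DC against cDC1, 4 of 7 were higher and 0 lower, where 6.29% of all genes were called higher and 3.49% lower. In Cd209a cDC2 against Lyve1-negative macrophages, 1 of 7 was higher and 0 lower, where 9.73% of all genes were called higher and 11.3% lower. The median log2 fold change of the 7 was 0.46, -1.17, 1.74 and 0.25 in these 4 comparisons, against -0.04, -0.09, 0.03 and -0.02 over all genes. Cd80, Icosl and Tnfsf9 were called in both comparisons with cDC1, and Cd86, Cd40 and Pdcd1lg2 in none of the 4. When the counts of each cell were thinned to 1000 UMIs before summing, so that each cell weighed the same, only Cd80, Cd86 and Tnfsf9 passed the filter, and 0, 1, 0 and 0 of these 3 were called in these comparisons.

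In Lyve1 macrophages against Lyve1-negative macrophages, 0 of 7 were higher and 1 lower, where 6.40% of all genes were called higher and 6.79% lower. In monocytes against Lyve1-negative macrophages, 0 of 7 were called by edgeR's quasi-likelihood test and 1 had an unadjusted p under 0.05, where 4.14% of all genes were called in either direction. DESeq2 also called 0 in that contrast. In ILC2 against Lyve1-negative macrophages, 2 of 7 were higher and 4 lower, where 24.8% of all genes were called higher and 24.5% lower. The lymphoid and the macrophage profiles differed in a large share of all genes, so the count there is read gene by gene.

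**Figure D2:**
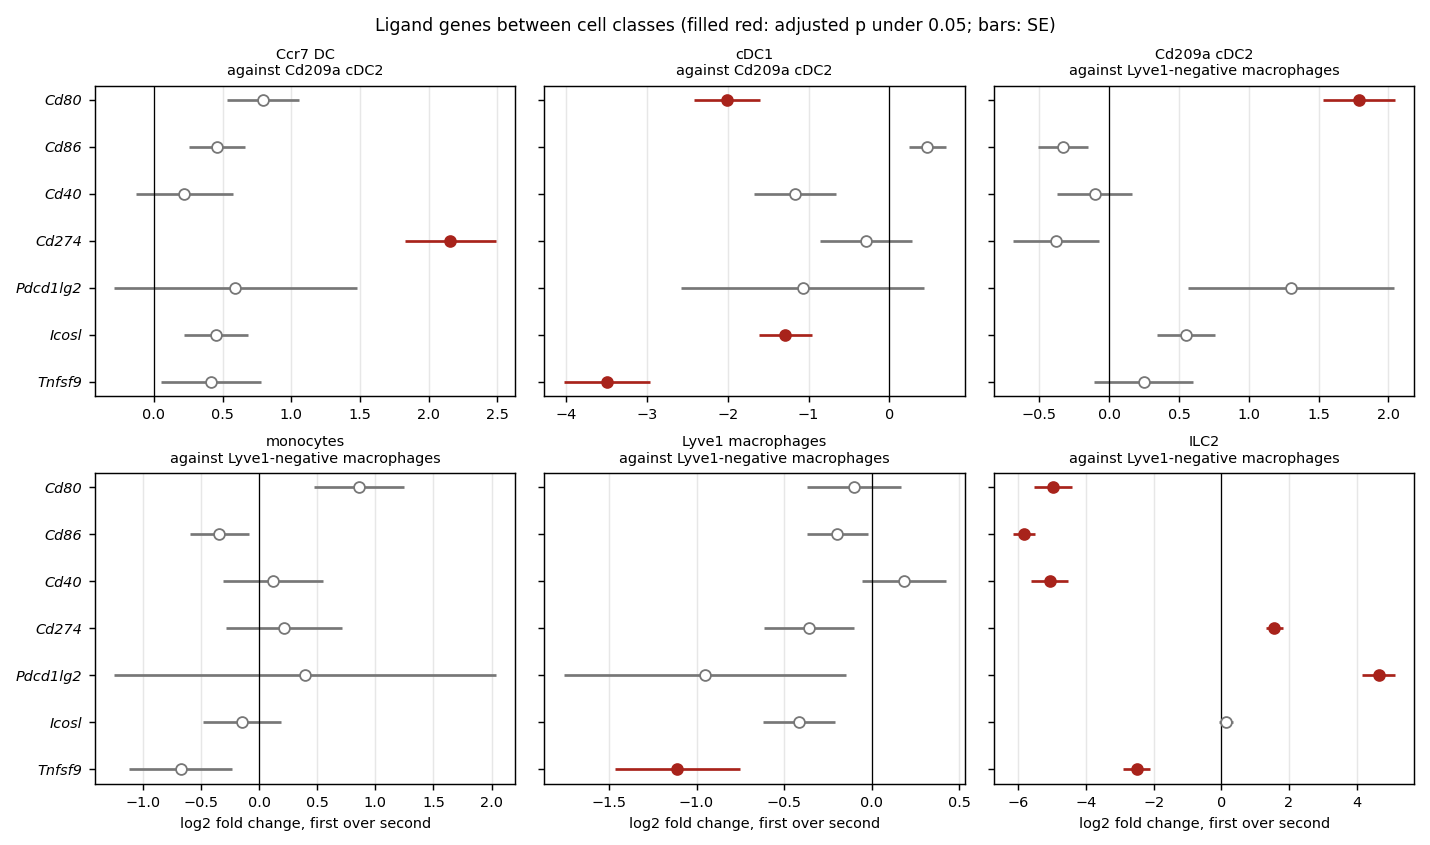
Log2 fold change (first class over second, horizontal axis) of the 7 tested genes in 6 comparisons, with bars for the standard error and filled red points for an adjusted p under 0.05. The filled points are Cd274 in Ccr7 DC, the 3 genes lower in cDC1, Cd80 in Cd209a cDC2, Tnfsf9 in Lyve1 macrophages and 6 genes in ILC2.

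Cd80 (chr16:38455561-38496335, + strand, GRCm38) was highest in the dendritic cells other than cDC1. It was at 277, 316 and 228 CPM in Ccr7 DC of replicates 1, 2 and 3, at 58.2 and 17.9 CPM in cDC1 of replicates 2 and 3, and at 186, 216 and 108 CPM in Cd209a cDC2 of replicates 1, 2 and 3. The 3 ranges did not overlap. The level was lower in cDC1 than in Cd209a cDC2 by a log2 fold change of -2.01 ± 0.41 (SE; edgeR's quasi-likelihood test, adjusted p = 0.00109), and in Ccr7 DC it was higher than in cDC1 by 2.80 ± 0.41 (adjusted p = 1.65e-05, same edgeR test). With cells thinned to 1000 UMIs both calls were lost, at -0.91 (edgeR adjusted p = 0.679) for cDC1 over Cd209a cDC2 and 2.54 (edgeR adjusted p = 0.0818) for Ccr7 DC over cDC1. Between Ccr7 DC and Cd209a cDC2 the difference of 0.79 ± 0.26 did not pass the adjusted test (edgeR's quasi-likelihood test, adjusted p = 0.171), although Ccr7 DC were higher in 3 of 3 libraries.

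Outside dendritic cells, Cd80 was at 125 and 108 CPM in monocytes of replicates 1 and 2, at 106, 47.5 and 28.4 CPM in Lyve1 macrophages and at 44.4, 76.9 and 33.2 CPM in Lyve1-negative macrophages. The monocyte values lay above those of Lyve1-negative macrophages in both libraries, but the difference of 0.86 ± 0.39 did not pass (edgeR's quasi-likelihood test, adjusted p = 0.266). Cd209a cDC2 were above Lyve1-negative macrophages in 3 of 3 libraries, by 1.79 ± 0.26 on the log2 scale (edgeR's quasi-likelihood test, adjusted p = 4.61e-06). With cells thinned to 1000 UMIs this difference was 0.51 and the call was lost (edgeR adjusted p = 0.514). Of 15 alternatives, 14 kept the call, among them cells of at least 2000 UMIs, at 1.87 (edgeR adjusted p = 8.5e-06). The median depths were 14219 UMIs in Cd209a cDC2 and 6301 UMIs in Lyve1-negative macrophages, and a role of depth was not tested. ILC2 held 4 UMIs of Cd80 in 414 cells, and T or NK cells and mast cells held 0, so the level in these classes was near 0. At 1000 UMIs per cell, Cd80 was found in 24.4 ± 9.05% of Ccr7 DC, 3.96 ± 0.549% of cDC1 (n = 2 libraries) and 10.4 ± 1.82% of Cd209a cDC2 (SD, n = 3 libraries otherwise), against 0 of 63 T or NK cells, which allows up to 4.76%. Without thinning, the pooled shares were 87.7%, 23.7% and 58.1% in the same order, against 0 of 63. Intervals and limits given here cover counting error only.

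Cd86, the other B7 ligand (chr16:36603869-36666081, - strand, GRCm38), was spread over all myeloid classes. It was at 95.6, 208 and 159 CPM in Ccr7 DC, 201 and 149 CPM in cDC1 of replicates 2 and 3, and 124, 146 and 89.2 CPM in Cd209a cDC2. Monocytes held 125 and 157 CPM in replicates 1 and 2, Lyve1 macrophages 135, 200 and 128 CPM, and Lyve1-negative macrophages 137, 219 and 135 CPM. Both cDC1 values, of replicates 2 and 3, lay just above the Cd209a cDC2 range, and the other myeloid ranges overlapped with one another. The 8 cDC1 of replicate 1, which were not in the test, held 18 Cd86 UMIs, or 126 CPM, which is inside the Cd209a cDC2 range. In cDC1 against Cd209a cDC2 the log2 fold change was 0.47 ± 0.23 (edgeR's quasi-likelihood test, adjusted p = 0.254), with cDC1 higher in 2 of 2 libraries. The difference of Cd86 did not pass the test, while Cd80 was lower in the same cDC1 profiles.

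ILC2 held 2, 3 and 2 UMIs of Cd86 in replicates 1, 2 and 3, or 1.92, 2.81 and 2.22 CPM, and T or NK cells held 0 UMIs. The difference from Lyve1-negative macrophages was -5.83 ± 0.32 (edgeR's quasi-likelihood test, adjusted p = 7.66e-15), lower in 3 of 3 libraries. At 1000 UMIs per cell, 25.6 ± 4.13% of monocytes (n = 2 libraries), 15.5 ± 3.37% of Lyve1 macrophages and 15.99 ± 4.79% of Lyve1-negative macrophages had a Cd86 UMI (SD, n = 3 libraries), against 0 of 414 ILC2, which allows up to 0.725%, and 0 of 63 T or NK cells. Macrophages gave most of the Cd86 molecules in these libraries, and they were also most of the cells. Of 3631 UMIs, 33.8% were in Lyve1 macrophages and 34.3% in Lyve1-negative macrophages, which were 1021 and 991 of 3430 kept cells.

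Icosl, the ligand of ICOS (chr10:78069302-78083913, + strand, GRCm38), was found in every myeloid class and in ILC2. It was at 105, 141 and 167 CPM in Ccr7 DC, 46.0 and 35.7 CPM in cDC1 of replicates 2 and 3, and 117, 98.5 and 110 CPM in Cd209a cDC2. The cDC1 values of replicates 2 and 3 lay below all values of both other dendritic cell classes. The log2 fold changes were -1.29 ± 0.33 for cDC1 over Cd209a cDC2 (edgeR's quasi-likelihood test, adjusted p = 0.00987) and 1.74 ± 0.34 for Ccr7 DC over cDC1 (adjusted p = 0.000625, same edgeR test). The 8 cDC1 of replicate 1, which were not in the test, held 14 Icosl UMIs, or 97.9 CPM, close to the lowest Cd209a cDC2 value. The call for cDC1 over Cd209a cDC2 was lost without replicate 2 (-1.53) and without replicate 3 (-1.07), since 1 cDC1 profile then remained, and that for Ccr7 DC over cDC1 was lost without replicate 2 (1.78, adjusted p = 0.0505 by edgeR).

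ILC2 held 106, 70.2 and 53.2 CPM of Icosl in replicates 1, 2 and 3, against 103, 78.8 and 63.2 CPM in Lyve1-negative macrophages. These values overlapped, and the difference was 0.14 ± 0.21 (edgeR's quasi-likelihood test, adjusted p = 0.630), with its sign turned to -0.02 under DESeq2 size factors. In ILC2 at 1000 UMIs per cell, Icosl was found in 20.6% of cells of replicate 1, 6.06% of replicate 2 and 3.52% of replicate 3, so replicate 1 stood apart. Pooled, it was 8.94% (37 of 414 cells, exact Clopper-Pearson 95% interval 6.37% to 12.1%), against 0 of 44 mast cells, which allows up to 6.82%, and 3.17% of 63 T or NK cells (0.387% to 11%). In 56 fibroblasts it was 7.14% (1.98% to 17.3%), at a median of 13694.5 UMIs per cell before thinning. Without thinning the shares were 35.3% of ILC2, against 12.7% of T or NK cells, 0 of the mast cells and 39.3% of fibroblasts. The thinned intervals of ILC2, T or NK cells and fibroblasts overlapped, so the thinned share did not tell ILC2 apart from those. In T or NK cells Icosl was at 16.9, 31.9 and 9.18 CPM in replicates 1, 2 and 3, from 3, 6 and 1 UMIs. All of these levels lay below all ILC2 levels, at median depths of 6989 UMIs in T or NK cells and 6991.5 UMIs in ILC2. This difference in level was not tested. Mast cells, at a median of 2613.5 UMIs, held no Icosl UMI in any library.

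Cd274 and Pdcd1lg2, which encode the inhibitory ligands PD-L1 and PD-L2, are neighbours on chromosome 19. In the GRCm38 annotation (GENCODE M21), Cd274 lies at chr19:29367455-29388095 and Pdcd1lg2 at chr19:29410919-29471161, both on the + strand and 22.8 kb apart. Each overlaps an antisense gene, AC119228.1 and A930007I19Rik. Tnfsf9, on the + strand of chromosome 17, likewise overlaps a gene on the - strand, Gm11110. Whether counting used the strand is not given in the sources used here, and reads of antisense partners were not examined. The 250 bases before each start are shown because both genes were high in ILC2, while only Cd274 was also high in Ccr7 DC. They are from RefSeq, GRCm38.p6, + strand, chr19:29367188-29367437 for Cd274 and chr19:29410669-29410918 for Pdcd1lg2, with capitals for a GC box (GGGCGG, either strand):
Cd274: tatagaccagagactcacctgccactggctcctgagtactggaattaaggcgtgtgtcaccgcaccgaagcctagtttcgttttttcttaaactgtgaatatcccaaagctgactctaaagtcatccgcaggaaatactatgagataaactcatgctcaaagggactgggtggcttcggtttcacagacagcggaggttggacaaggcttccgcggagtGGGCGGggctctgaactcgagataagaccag
Pdcd1lg2: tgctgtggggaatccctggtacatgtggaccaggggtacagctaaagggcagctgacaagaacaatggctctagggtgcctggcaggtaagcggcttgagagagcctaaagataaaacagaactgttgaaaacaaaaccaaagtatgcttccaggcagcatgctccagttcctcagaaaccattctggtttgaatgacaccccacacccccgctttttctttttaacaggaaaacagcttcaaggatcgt

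The Cd274 sequence held 1 GC box and 11 CpG dinucleotides, and that of Pdcd1lg2 held 0 and 3; the median over 32851 mouse promoters was 6 CpG, and 32.7% of them held a GC box. A TATA box (TATAAA) and a STAT pattern (TTCNNNGAA) were also searched on both strands in the 4 of 8 genes with a promoter in the table, Cd80, Cd274, Pdcd1lg2 and Icosl. These are found in 12.4% and 7.02% of all promoters, and neither was in the 4 windows, which says only that the letters were absent there. The Icosl window (chr10:78069118-78069367) held a GC box and 23 CpG, and the Cd80 window (chr16:38458683-38458932) held none and 3. Against the gene bounds given above, the Icosl window spans the gene start. The Cd80 window lies inside the gene, past that start.

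Cd274 was the ligand that set Ccr7 DC apart from Cd209a cDC2. It was at 81.3, 72.5 and 45.6 CPM in Ccr7 DC of replicates 1, 2 and 3, at 17.0 and 5.96 CPM in cDC1 of replicates 2 and 3, and at 19.2, 21.3 and 6.44 CPM in Cd209a cDC2. All Ccr7 DC values lay above all values of the other dendritic cells. The log2 fold change was 2.16 ± 0.33 over Cd209a cDC2 (edgeR's quasi-likelihood test, adjusted p = 0.000427; higher in 3 of 3 libraries) and 2.45 ± 0.49 over cDC1 (adjusted p = 0.000826, same edgeR test). Few cells carried the signal: 22 of 73 Ccr7 DC had a Cd274 UMI, and 1 cell gave 9 of the 17 UMIs in replicate 1, 11 of 51 in replicate 2 and 8 of 12 in replicate 3.

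The Ccr7 DC differed among themselves in these ligands. Of 73 cells, 11 had at least 4 of the 8 Ccr7 DC markers (6 in replicate 2 and 5 in replicate 3), and the other 62 had 2 or 3; this split was made after values had been seen and carries no test. Cd274 was at 362 CPM (28 UMIs) in the cells with 4 or more markers and 47.3 CPM (52 UMIs) in the rest. Icosl was at 271 CPM (21 UMIs) and 131 CPM (144 UMIs) in the same order. Tnfsf9 was at 103 CPM (8 UMIs, in 2 of the 11 cells) and 619 CPM (680 UMIs). The cells with 4 or more markers were thus higher in Cd274 and Icosl and lower in Tnfsf9, on few cells and UMIs. Their median depth was 5203 UMIs, against 17033 UMIs in the rest.

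ILC2 held Cd274 at 54.7, 62.7 and 43.3 CPM in replicates 1, 2 and 3, against 18.1, 27.1 and 16.4 CPM in Lyve1-negative macrophages. The ranges did not overlap, and ILC2 were higher by 1.56 ± 0.25 on the log2 scale (edgeR's quasi-likelihood test, adjusted p = 3.62e-06). The gene was also found in T or NK cells, at 107, 47.8 and 55.1 CPM, and in mast cells, at 132 and 49.3 CPM in replicates 2 and 3, with 17 UMIs in the 8 mast cells of replicate 1. At 1000 UMIs per cell, 6.7 ± 1.5% of ILC2 had a Cd274 UMI (SD, n = 3 libraries), against 3.22 ± 2.12% of Lyve1-negative macrophages; unthinned and pooled, the shares were 25.8% and 9.89%. Fibroblasts, of which 56 were left in these CD45+ libraries, had a Cd274 UMI in 1.79% of cells without thinning at a median of 13694.5 UMIs, and ILC2 in 25.8% at a median of 6991.5 UMIs.

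Most Pdcd1lg2 molecules were in ILC2: 61.0% of its 177 UMIs were in ILC2, which were 12.1% of cells. It was at 43.2, 32.7 and 31.1 CPM in ILC2 (45, 35 and 28 UMIs), against 5.76, 0.311 and 0.714 CPM in Lyve1-negative macrophages (7, 1 and 2 UMIs). No ILC2 value overlapped with a macrophage value, and the log2 fold change was 4.65 ± 0.49 (edgeR's quasi-likelihood test, adjusted p = 1.91e-09). T or NK cells held 22.6, 42.5 and 18.4 CPM from 14 UMIs in all. Mast cells held 75.7 and 49.3 CPM in replicates 2 and 3, from 4 and 3 UMIs, which is above every ILC2 library but rests on counts at or next to the limit of 3. In Ccr7 DC there were 3, 2 and 1 UMIs and in Cd209a cDC2 8, 2 and 1, and the difference of 0.59 ± 0.88 between them was not called (edgeR's quasi-likelihood test, adjusted p = 0.906). With so few molecules, a difference in PD-L2 between dendritic cell classes was not detectable at this depth.

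**Figure D3:**
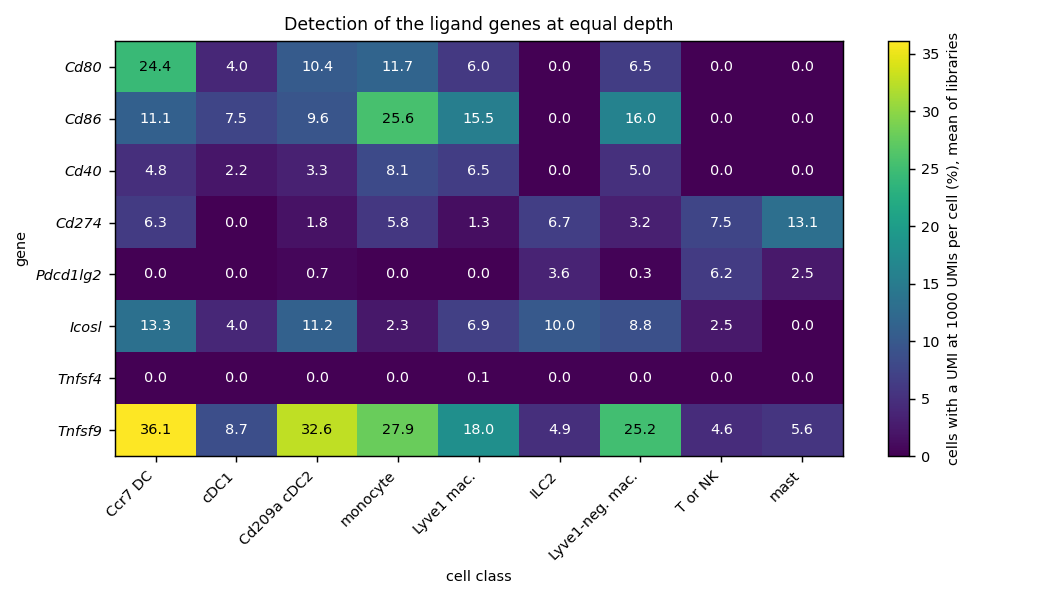
Percent of cells with at least 1 UMI of each gene after thinning to 1000 UMIs per cell, as the mean of the libraries with at least 10 cells, for 9 cell classes. Tnfsf9 and Cd80 are brightest in Ccr7 DC (36.1% and 24.4%) and Cd86 in monocytes (25.6%, from 4 of 14 and 5 of 22 cells in replicates 1 and 2). The rows of Cd80, Cd86 and Cd40 are at 0 in ILC2, T or NK cells and mast cells.

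Tnfsf9, the 4-1BB ligand (chr17:57105325-57107757, + strand, GRCm38), had 9846 UMIs in kept cells. It was at 607, 367 and 1150 CPM in Ccr7 DC of replicates 1, 2 and 3, 89.7 and 17.9 CPM in cDC1 of replicates 2 and 3, and 397, 571 and 715 CPM in Cd209a cDC2. Ccr7 DC and Cd209a cDC2 overlapped, and cDC1 lay below both. The log2 fold change of cDC1 over Cd209a cDC2 was -3.50 ± 0.54 (edgeR's quasi-likelihood test, adjusted p = 2.25e-05), and that of Ccr7 DC over cDC1 was 3.92 ± 0.55 (adjusted p = 6.18e-06, same edgeR test). With cells thinned to 1000 UMIs the first was -2.62 and still called (edgeR adjusted p = 0.0248), and the second was 2.40 and its call was lost (edgeR adjusted p = 0.0713). The 8 cDC1 of replicate 1, which were not in the test, held 52 Tnfsf9 UMIs, or 364 CPM, of which 48 were in 1 cell.

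In macrophages Tnfsf9 was at 276, 383 and 127 CPM in Lyve1 macrophages, against 350, 862 and 390 CPM in Lyve1-negative macrophages. The ranges overlapped, while within each library Lyve1 macrophages were lower. The log2 fold change was -1.11 ± 0.36 (edgeR's quasi-likelihood test, adjusted p = 0.0356), and the call was lost without replicate 2 (-0.98, adjusted p = 0.0579), without the replicate block (-1.17, adjusted p = 0.246) and in DESeq2 (-1.02, adjusted p = 0.203). In cells of at least 2000 UMIs, thinned to 1000, 19.8%, 22.6% and 9.81% of Lyve1 macrophages of replicates 1, 2 and 3 had a Tnfsf9 UMI, against 17.0%, 43.9% and 17.7% of Lyve1-negative macrophages. In replicate 1 the share at equal depth was thus not lower in Lyve1 macrophages, and the high share of Lyve1-negative macrophages in replicate 2 was as large without its cells under 2000 UMIs (42.1% with them).

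Monocytes held Tnfsf9 at 198 and 471 CPM in replicates 1 and 2, below Lyve1-negative macrophages in both, with an uncalled difference of -0.68 ± 0.44 (edgeR's quasi-likelihood test, adjusted p = 0.501). ILC2 held 75.8, 78.6 and 74.3 CPM, lower than Lyve1-negative macrophages by -2.50 ± 0.39 (edgeR's quasi-likelihood test, adjusted p = 2.54e-06). At 1000 UMIs per cell, Tnfsf9 was found in 4.83% of 414 ILC2, against 4.76% of 63 T or NK cells. Median depths were 6991.5 and 6989 UMIs, and the thinned share did not tell ILC2 apart from T or NK cells. T or NK cells held 33.9, 31.9 and 45.9 CPM, from 6, 6 and 5 UMIs. These values lay below ILC2 in each library, and the difference was not tested.

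Tnfsf4, the OX40 ligand (chr1:161395409-161418410, + strand, GRCm38), had 17 UMIs in all kept cells and was tested in no comparison. Of these, 7 were in Ccr7 DC (1, 6 and 0 in replicates 1, 2 and 3), 8 in ILC2 (3, 2 and 3) and 2 in Lyve1 macrophages. In 198 Cd209a cDC2, 59 cDC1, 42 monocytes and 991 Lyve1-negative macrophages there were 0. Of the 7 UMIs in Ccr7 DC, 4 were in 1 cell of replicate 2, and 5 were in the 11 cells with at least 4 Ccr7 DC markers. The 8 ILC2 UMIs lay in 6 cells, or 1.45% of ILC2 without thinning, against 0 of 63 T or NK cells, which allows up to 4.76%; at this depth the difference was not detectable.

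Cd40, the receptor for T cell help (chr2:165055627-165072948, + strand, GRCm38), was at similar levels in most myeloid classes. It was at 33.5, 39.8 and 53.1 CPM in Ccr7 DC, 24.2 and 5.96 CPM in cDC1 of replicates 2 and 3, and 32.8, 43.7 and 34.0 CPM in Cd209a cDC2. The cDC1 values were the lowest of these, with uncalled log2 fold changes of -1.17 ± 0.51 over Cd209a cDC2 (edgeR's quasi-likelihood test, adjusted p = 0.174) and 1.39 ± 0.54 for Ccr7 DC over cDC1 (adjusted p = 0.107, same edgeR test). Lyve1 macrophages held 87.3, 55.0 and 33.3 CPM, against 39.5, 49.8 and 37.5 CPM in Lyve1-negative macrophages, which overlapped. ILC2 held 3 Cd40 UMIs, fewer than Lyve1-negative macrophages by -5.08 ± 0.54 on the log2 scale (edgeR's quasi-likelihood test, adjusted p = 3.01e-09). At 1000 UMIs per cell, 6.53 ± 3.06% of Lyve1 macrophages and 5.05 ± 0.867% of Lyve1-negative macrophages had a Cd40 UMI (SD, n = 3 libraries), against 0 of 414 ILC2 and 0 of 63 T or NK cells.

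The Lyve1-negative macrophages were split by chemokine receptors into 500 cells with Ccr2, the chemokine receptor of monocytes and of cells newly derived from them, and 151 with Cx3cr1 and no Ccr2. Of these, 114 and 36 had exactly 1 UMI of the gene. The remaining 340 cells had neither gene and were not tested: 262 were in replicate 2, and their median depth was 1329 UMIs. At 1000 UMIs per cell and pooled over libraries, they held 0.921 ligand genes, against 0.722 in Ccr2 and 0.450 in Cx3cr1 macrophages. By library, the means lay near those of Ccr2 macrophages. They were 0.529, 1.03 and 0.541 in replicates 1, 2 and 3, against 0.529, 0.942 and 0.552 in Ccr2 and 0.278, 0.723 and 0.337 in Cx3cr1 macrophages. Of 6 ligand genes tested, 0 were called by edgeR's quasi-likelihood test, where 2.77% of 7173 genes were called in either direction; 2 had an unadjusted p under 0.05, and DESeq2 called 0. Cd86 was at 128, 194 and 112 CPM in Ccr2 macrophages of replicates 1, 2 and 3, against 178, 310 and 162 CPM in Cx3cr1 macrophages. Within each library the Ccr2 macrophages were lower, though the ranges overlapped, and the log2 fold change of -0.58 ± 0.16 did not pass (edgeR's quasi-likelihood test, adjusted p = 0.0762). Cd80 was at 43.9, 81.3 and 36.9 CPM, against 41.1, 48.9 and 15.9 CPM, with a log2 fold change of 0.77 ± 0.28 (edgeR's quasi-likelihood test, adjusted p = 0.195). Without replicate 1, in which 18 Cx3cr1 macrophages were counted, 3 genes were called.

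A split of the Lyve1-negative macrophages by Il1b, the gene of the inflammatory cytokine IL-1 beta, gave higher levels of all the ligands that could be tested. Cells were called Il1b-positive by at least 1 Il1b UMI after thinning to 1000 UMIs, which gave 24, 361 and 89 cells in replicates 1, 2 and 3, against 96, 171 and 250 Il1b-negative cells. All 6 tested ligand genes were higher in Il1b-positive cells in 3 of 3 libraries and were called, where 5.14% of 7958 genes were called higher and 1.14% lower. The median log2 fold change of the 6 was 1.43, against -0.03 over all genes. Cd80 was at 75.2, 106 and 68.8 CPM in Il1b-positive cells, against 36.3, 38.3 and 18.6 CPM in Il1b-negative cells, and Cd86 was at 210, 276 and 243 CPM, against 117, 143 and 90.6 CPM. Neither gene's ranges overlapped. The log2 fold changes were 1.69 ± 0.22 for Cd80 and 1.27 ± 0.18 for Cd86 (edgeR's quasi-likelihood test, adjusted p = 0.000206 and 0.000359).

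The inhibitory Cd274 moved with them, at 47.5, 32.8 and 38.1 CPM in Il1b-positive cells, against 10.4, 19.5 and 7.55 CPM in Il1b-negative cells, without overlap. Its log2 fold change was 1.76 ± 0.34 (edgeR's quasi-likelihood test, adjusted p = 0.00468). Tnfsf9 was at 641, 1042 and 892 CPM, against 274, 623 and 185 CPM, a log2 fold change of 1.58 ± 0.25 (adjusted p = 0.00106, same edgeR test), and Cd40 at 63.3, 67.8 and 45.4 CPM, against 33.2, 26.0 and 34.2 CPM, a log2 fold change of 1.11 ± 0.24 (adjusted p = 0.0101, same edgeR test). Icosl showed the smallest of these differences, at 119, 91.3 and 74.9 CPM, against 98.6, 62.2 and 58.4 CPM, which overlapped, with 0.60 ± 0.17 (edgeR's quasi-likelihood test, adjusted p = 0.0498).

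Depth moved with this split in replicate 2, where Il1b-positive cells had a median of 1434 UMIs, against 7383 UMIs in Il1b-negative cells; in replicates 1 and 3 the medians were 10245.5 and 9056, against 9329.5 and 7513.5. In cells of at least 2000 UMIs all 6 genes were called again, with log2 fold changes of 1.78 for Cd80, 1.67 for Cd274, 1.63 for Tnfsf9, 1.29 for Cd86, 1.07 for Cd40 and 0.65 for Icosl. With cells thinned to 1000 UMIs, 2 of the 6 were called: Cd86 at 1.02 and Tnfsf9 at 0.96 (edgeR adjusted p = 0.0182 and 0.00882). Cd80 was then at 0.99 (edgeR adjusted p = 0.255) and Icosl at 0.18 (edgeR adjusted p = 0.909), and Cd40 and Cd274 did not pass the filter on low counts. Of the other alternatives, only those named next ended a call. The Icosl call was lost in 10 of 14 alternatives, among them without replicate 2 and without replicate 3, the Cd40 call without replicate 2 (0.82) and in DESeq2 (1.11), the Cd274 call without replicate 3 (1.36) and the Tnfsf9 call without the replicate block.

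**Figure D4:**
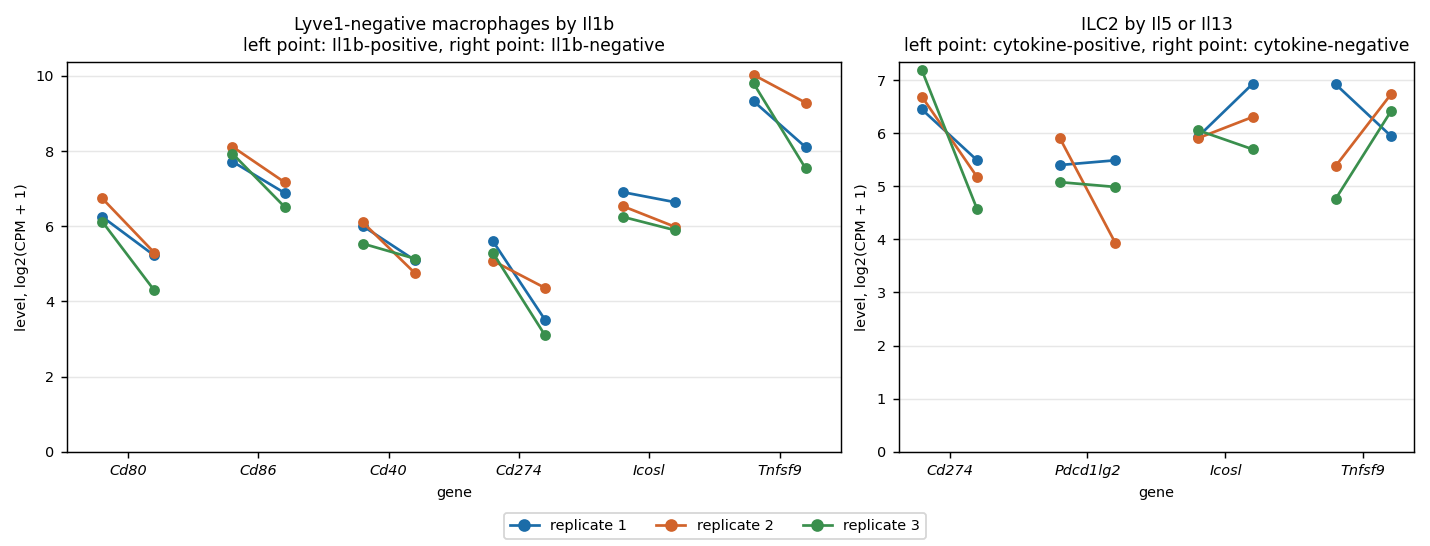
Levels as log2(CPM + 1) of each tested ligand gene in paired subsets of the same library, joined by lines in the colour of the library: Il1b-positive (left point) and Il1b-negative (right point) Lyve1-negative macrophages on the left, cytokine-positive (left point) and cytokine-negative (right point) ILC2 on the right. All lines of the left panel slope down to the right, and in the right panel only those of Cd274 do so in all 3 libraries.

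The ILC2 were split in the same way by Il5 and Il13, their effector cytokines: 22, 63 and 23 cells in replicates 1, 2 and 3 had a UMI of either after thinning, against 85, 102 and 119 without. Of 4 ligand genes tested, 1 was higher and 0 lower in cytokine-positive cells, where 3.91% of 5265 genes were called higher and 0.475% lower. Cd274 was at 86.1, 102 and 144 CPM in cytokine-positive ILC2, against 43.9, 35.1 and 22.7 CPM in cytokine-negative ILC2. The groups did not overlap, and the log2 fold change was 1.69 ± 0.32 (edgeR's quasi-likelihood test, adjusted p = 0.00422). Pdcd1lg2 was at 41.2, 58.8 and 32.7 CPM, against 43.9, 14.3 and 30.7 CPM, which overlapped (0.74 ± 0.41; edgeR's quasi-likelihood test, adjusted p = 0.382). Icosl (-0.42 ± 0.31) and Tnfsf9 (-0.41 ± 0.40) were not called. Median depths were 9197, 7205 and 6609 UMIs in cytokine-positive cells, against 8532, 6232.5 and 6185 UMIs in cytokine-negative cells.

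Most cells showed none or 1 of the 8 genes at equal depth. At 1000 UMIs, at least 2 of the 8 were found in 18 of 73 Ccr7 DC, 3 of 59 cDC1, 30 of 198 Cd209a cDC2, 7 of 42 monocytes, 107 of 1021 Lyve1 macrophages, 10 of 414 ILC2 and 182 of 991 Lyve1-negative macrophages, against 1 of 63 T or NK cells. The mean number of ligand genes per cell was 0.959 in Ccr7 DC, 0.697 in Cd209a cDC2 and 0.305 in cDC1. Of the 182 Lyve1-negative macrophages, 135 were in replicate 2, 36 in replicate 3 and 11 in replicate 1. Without thinning, 55 of 73 Ccr7 DC held both Cd80 and Cd86, and in ILC2 Cd274 and Pdcd1lg2 were found together in 25 of 414 cells, where 107 had Cd274 and 77 had Pdcd1lg2. In Ccr7 DC the 6 cells with Pdcd1lg2 all had Cd274, which was found in 22 of 73. Unthinned counts depend on depth, and whether these pairs were found together more often than their separate shares give was not tested.

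**Figure D5:**
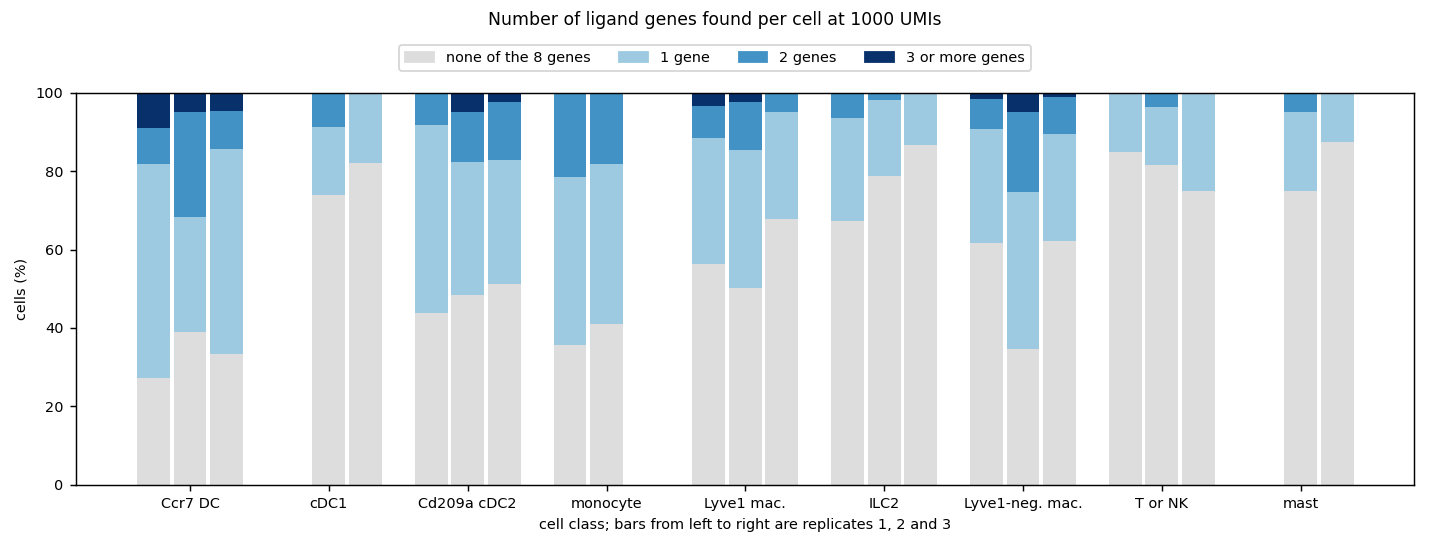
Percent of cells with 0, 1, 2 or at least 3 of the 8 ligand genes at 1000 UMIs per cell, with 1 bar per library and cell class for libraries with at least 10 cells. Cells with none make up 27.3% to 39.0% of Ccr7 DC, 73.9% to 82.1% of cDC1, 67.3% to 86.6% of ILC2, and 61.7%, 34.6% and 62.2% of Lyve1-negative macrophages in replicates 1, 2 and 3.

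The receptors of the ligands were measured in the same cells, with 11 of 12 tested between classes. In ILC2 against Lyve1-negative macrophages, 7 were higher and 2 lower, where 24.8% of all genes were called higher and 24.5% lower, with a median log2 fold change of 3.66 against 0.05 over all genes. Icos, the receptor of ICOSL, was at 179 ± 47.3 CPM in ILC2, against 1.70 ± 0.838 CPM in Lyve1-negative macrophages (SD, n = 3 libraries; log2 fold change 6.68 ± 0.38, edgeR's quasi-likelihood test, adjusted p = 4.3e-14). Pdcd1, which encodes PD-1, was at 32.7 ± 2.80 CPM, against 0.311 ± 0.539 CPM from 3 UMIs (6.23 ± 0.64, adjusted p = 3.34e-09, same edgeR test). The ILC2 thus held RNA of a receptor and of its ligand for both pairs, Icos with Icosl and Pdcd1 with Cd274 and Pdcd1lg2. In cytokine-positive against cytokine-negative ILC2, 2 of 4 tested receptors were higher, where 3.91% of all genes were: Pdcd1, at 73.9 ± 27.6 against 14.6 ± 10.5 CPM (2.49 ± 0.43, adjusted p = 0.00204), and Icos, at 374 ± 170 against 105 ± 7.91 CPM (1.82 ± 0.23, adjusted p = 0.000124), both by edgeR's quasi-likelihood test.

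Among 19 genes of CD40 and NF-kB signalling, the pathway that TNF receptors and inflammatory stimuli use, 13 were higher and 0 lower in Il1b-positive than in Il1b-negative macrophages, where 5.14% of all genes were called higher and 1.14% lower, with a median log2 fold change of 1.17 against -0.03 over all genes. Traf1, an adaptor of TNF receptors, was at 112 ± 42.4 CPM in Il1b-positive cells, against 44.2 ± 8.05 CPM in Il1b-negative cells (1.59 ± 0.20; edgeR's quasi-likelihood test, adjusted p = 0.000157). In the dendritic cells, 9 of 19 were lower in cDC1 than in Cd209a cDC2 (5.53% of all genes) and 13 were higher in Ccr7 DC than in cDC1 (6.29% of all genes). In Ccr7 DC against Cd209a cDC2, 3 of 19 were higher (0.582% of all genes): Birc2 (1.35 ± 0.26), Map3k14 (1.14 ± 0.21) and Relb, of which Map3k14, the NF-kB inducing kinase, was at 233 ± 88.4 CPM, against 109 ± 42.2 CPM (edgeR's quasi-likelihood test, adjusted p = 0.00239). The other counts for this list were 5 higher of 19 in Cd209a cDC2 (9.73% of all genes) and 2 lower in Lyve1 macrophages (6.79% of all genes), each against Lyve1-negative macrophages, and 5 higher of 17 in cytokine-positive ILC2 (3.91% of all genes). The 2 lower genes in Lyve1 macrophages are near the share over all genes.

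Of the other co-signalling ligands, 13 of 21 were tested between classes. In ILC2 against Lyve1-negative macrophages 4 were higher and 7 lower (24.8% and 24.5% of all genes), and in cDC1 against Cd209a cDC2 0 were higher and 3 lower (3.47% and 5.53% of all genes). The 4 higher of 13 are near the share over all genes. Vsig4, an inhibitory B7 relative and complement receptor of resident macrophages, was at 38.5 ± 18.4 CPM in Lyve1 macrophages, against 1.77 ± 0.113 CPM in Lyve1-negative macrophages (4.32 ± 0.41; edgeR's quasi-likelihood test, adjusted p = 3.42e-07). Of 8 other TNF superfamily ligands, 4 were higher and 3 lower in ILC2 than in Lyve1-negative macrophages, with the same shares over all genes. Tnf itself was lower in cDC1, at 18.5 ± 15.9 CPM (n = 2 libraries), than in Cd209a cDC2, at 156 ± 41.5 CPM (-3.10 ± 0.69; edgeR's quasi-likelihood test, adjusted p = 0.00263). Of 10 genes of interferon gamma signalling, a known inducer of PD-L1, Jak2 was the 1 called in Ccr7 DC against Cd209a cDC2 (0.88, higher, where 0.582% of all genes were) and in cytokine-positive ILC2 (1.37, higher, where 3.91% of all genes were). Jak2 was named after values were seen, and a link to Cd274 was not tested.

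Over the 24 profiles of the classes and libraries, the genes outside the gates whose levels were most like those of each ligand were named by Pearson correlation of log2 CPM, as a description, since profiles share libraries and depth. For Cd80 this was Clec4b1 (r = 0.951), for Cd86 Zfp385a (r = 0.982), for Cd40 Slc15a3 (r = 0.967) with Cd14 next (r = 0.963), and for Icosl Kctd20 (r = 0.921). For Tnfsf9 it was Ptafr (r = 0.883), for Pdcd1lg2 B3galt2 (r = 0.904) and for Cd274 Hs3st3b1 (r = 0.845). Cd274, which was high in classes as different as Ccr7 DC, ILC2 and mast cells, had the lowest of these values.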

How the data were processed

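CD45+ cells of the stomach muscle were profiled with 10x Chromium 3' chemistry in 3 libraries, with 6777422, 13336484 and 11017170 UMIs in replicates 1, 2 and 3. The values are deposited UMI counts per gene and barcode, made with Cell Ranger 3.1 on mm10 per the submitters' processing notes; the file headers name software versions 3.0.0 (replicate 1) and 3.1.0 (replicates 2 and 3). Cells with at least 1000 UMIs and at most 15% mitochondrial UMIs were placed in classes by marker genes, with scores set after the markers' distributions, but not the ligands', had been seen. The members, gene lists and marker lists were chosen with earlier results of these data known. Cells that passed gates of more than 1 class were left out; high doublet scores (37 cells, scanpy 1.11.5) were removed only as an alternative.

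Counts were summed per class and library (at least 10 cells in at least 2 libraries) and tested with edgeR 4.0.16 in R 4.3.3 (TMM, filterByExpr, quasi-likelihood test, Benjamini-Hochberg over all genes tested). The design had class and library as terms, so that classes of 1 library were paired by their library. The fit of all classes held 24 profiles with 13 residual degrees of freedom, and each fit of paired subsets held 6 profiles with 2. Fits were tested on simulated data with known fold changes. Thinning drew 1000 UMIs per cell at random with a fixed seed in Python 3.11.15. Confidence intervals are exact Clopper-Pearson at 95%, and a count of 0 allows up to 3 counts. Named genes were the 8 ligand genes, the genes most correlated with each, and the called list members with the largest fold changes; Relb, Jak2 and the list members named for their role were added after values were seen. Alternatives were DESeq2 1.42.0, its size factors, no filter, no library block, leaving out each replicate, other limits on cells, UMIs, mitochondrial share, doublets and markers, thinned counts and fits of only the classes compared, and, chosen after seeing the data, leaving out barcodes found in more than 1 library and shares in cells of at least 2000 UMIs.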

Additional observations from a re-analysis of the deposited data

How the results depend on the processing

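Ligand genes called changed in number as follows, apart from the other lost calls of the Il1b split, which are named gene by gene above. In Ccr7 DC against Cd209a cDC2 (1 called) it was 2 with no filter on low counts, 2 with only the 2 classes compared and 0 with cells thinned to 1000 UMIs. Thinning left 1 of 3 in cDC1 against Cd209a cDC2, 0 of 4 in Ccr7 DC against cDC1, 3 of 6 in ILC2, 2 of 6 for the Il1b split and 0 of 1 for the cytokine split. Of the ligand genes only Cd80, Cd86 and Tnfsf9 could then be tested between classes, and all 3 were called in ILC2. Against Lyve1-negative macrophages, Cd209a cDC2 (1 called) had 2 with DESeq2, with profiles of at least 20 cells, with cells of at least 2000 UMIs, with 1 more marker, without shared barcodes and with only the 2 classes, and 0 thinned. Monocytes (0 called) had 1 with only the 2 classes. Lyve1 macrophages (1 called) had 0 with DESeq2 size factors, DESeq2 or no replicate block, and 2 with only the 2 classes. Ccr2 against Cx3cr1 macrophages (0 called) had 2 with profiles of at least 20 cells. Leaving out each replicate in turn gave 1 to 2 in Cd209a cDC2, 0 to 1 in Lyve1 macrophages, 0 to 3 in Ccr2 macrophages, 4 to 6 in the Il1b split, 2 to 3 in cDC1 against Cd209a cDC2, 3 to 4 in Ccr7 DC against cDC1 and 1 to 2 in the cytokine split (2 in Cd209a cDC2 and in the cytokine split and 3 in Ccr2 macrophages without replicate 1, and 0 in Lyve1 macrophages without replicate 2).

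Icosl in ILC2 against Lyve1-negative macrophages turned to -0.022 with DESeq2 size factors, -0.024 with DESeq2 and -0.044 with no filter, and Cd86 in Ccr2 against Cx3cr1 macrophages to 0.14 thinned; the cause was not tested. The replicate block, here the library, changed no other ligand call than Tnfsf9 in Lyve1 macrophages and Tnfsf9 and Icosl in the Il1b split, but it moved the counts over all genes. Without the replicate block, all genes called numbered 22 in Ccr7 DC against Cd209a cDC2 (98 with it), 478 in cDC1 against Cd209a cDC2 (850), 552 in Ccr7 DC against cDC1 (924), 42 in Ccr2 against Cx3cr1 macrophages (199), 107 in the Il1b split (500) and 80 in the cytokine split (231). Against Lyve1-negative macrophages they numbered 1134 in Cd209a cDC2 (1985), 195 in monocytes (391) and 366 in Lyve1 macrophages (1245). Thinning gave, in the same order, 11, 78, 86, 45, 110, 81, 340, 83 and 223, and 942 in ILC2 (4656); Cd274 was then tested in none of the comparisons. The thinned values moved in size too (Cd80 in cDC1 -0.91 and in Cd209a cDC2 0.51), and the cause was not tested. DESeq2 called 82, 267 and 131 in the 3 splits; no filter gave 239 in Ccr7 DC against Cd209a cDC2 and 401 in Ccr2 macrophages, at least 20 cells 408 in Ccr2 macrophages, and only the 2 classes 185 in Ccr7 DC against Cd209a cDC2 and 2156 in Lyve1 macrophages. Leaving out each replicate gave 372 to 864 in cDC1 against Cd209a cDC2, 386 to 992 in Ccr7 DC against cDC1, 1260 to 1576 in Cd209a cDC2, 194 to 421 in monocytes, 556 to 1226 in Lyve1 macrophages, 96 to 437 in Ccr2 macrophages, 220 to 1087 in the Il1b split and 166 to 362 in the cytokine split. With 1 more marker or at least 20 cells, monocytes gave no value. Depth limits Tnfsf4 and Pdcd1lg2 in dendritic cells, with 17 and 177 UMIs in all cells.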

Other observations

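Receptors and relatives of the ligands also differed among the myeloid cells. Btla, an inhibitory receptor of the CD28 family, was at 98.6 ± 21.6 CPM in cDC1 (n = 2 libraries), against 6.26 ± 3.91 CPM in Cd209a cDC2 (SD, n = 3 libraries), with a log2 fold change of 4.04 ± 0.59 (edgeR's quasi-likelihood test, adjusted p = 1.26e-05; higher in 2 of 2 libraries). Tnfrsf4, which encodes the OX40 receptor, had 24 UMIs in Ccr7 DC, against 1 in Cd209a cDC2, and was higher in 2 of 3 libraries (5.58 ± 1.32, edgeR's quasi-likelihood test, adjusted p = 0.0362). The receptor and its ligand Tnfsf4 were thus both rare in dendritic cells and mostly found in the Ccr7 gate.

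Havcr2, which encodes the inhibitory receptor TIM-3, was at 10.1 ± 5.35 CPM in Lyve1 macrophages, against 29.5 ± 2.14 CPM in Lyve1-negative macrophages (-1.91 ± 0.28, edgeR's quasi-likelihood test, adjusted p = 8.98e-06; lower in 3 of 3 libraries). Tnfrsf18, which encodes the receptor GITR, was at 279 ± 31.9 CPM in ILC2, against 2.92 ± 1.80 CPM in Lyve1-negative macrophages (6.61 ± 0.33, edgeR's quasi-likelihood test, adjusted p = 2.72e-16). Pvr, a ligand of TIGIT and DNAM-1, was at 103 ± 35.9 CPM in Il1b-positive macrophages, against 39.2 ± 19.3 CPM in Il1b-negative macrophages (1.65 ± 0.22, edgeR's quasi-likelihood test, adjusted p = 0.000261; higher in 3 of 3 libraries). In ILC2, Tnf was at 20.9 ± 16.5 CPM in cytokine-positive cells, against 79.6 ± 19.4 CPM in cytokine-negative cells (-2.04 ± 0.42, edgeR's quasi-likelihood test, adjusted p = 0.00654), the opposite direction to Cd274, Pdcd1 and Icos in that split.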
